A study of Mus musculus with 15 samples.

Results

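The genes described here are the clustered Zfp genes of the mouse, which encode zinc finger proteins and lie next to one another in the genome. A member was a protein-coding gene on chromosomes 1 to 19 with a symbol made of Zfp and digits that had at least 2 other such genes with gene starts within 500 kb. Of 20661 protein-coding genes, 360 had such a symbol and 215 were members, and the other 145 Zfp genes lay outside clusters. The members formed 33 clusters on 14 chromosomes when members with starts within 500 kb were chained, and 17 clusters with 5 or more members held 165 of the genes. Clusters are named below by chromosome and by a letter in order along it. By symbol the rule also took in Zfp36, which encodes tristetraprolin, an RNA-binding protein of another zinc finger type that promotes mRNA decay.

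The study profiled 3 histone marks by ChIP-seq, in which antibodies pull down nucleosomes carrying a mark, in liver from C57Bl/6 mice, 8 to 12 weeks old and fed a normal diet. Mice were WT or Uhrf1hepKO, and Uhrf1 encodes the protein that guides DNA methylation to newly replicated DNA. The promoter or Cre driver behind the deletion, and whether replicates were separate animals, are not stated in the labels, and whole liver also holds cells other than hepatocytes. H3K9me3 had 1 WT and 1 Uhrf1hepKO library (written KO below). H3K4me3 had 2 WT and 2 KO libraries. H3K27me3 had 2 WT libraries and 1 KO library from unchallenged liver, WT replicate 2 being the 0 h point of a regeneration series, with 1 further WT library at each of 30, 40 and 96 h. By their titles the H3K9me3 libraries and replicate 2 of H3K4me3 belonged to round 2, and replicate 1 of H3K4me3 carried no round. For H3K27me3, WT replicate 2 and the 30, 40 and 96 h libraries belonged to round 3. WT replicate 1 and the KO library of H3K27me3 carried no round, so that genotype contrast mixes libraries with and without a named round. Both replicate 2 libraries of H3K4me3 carried an antibody tag that names H3K9me3, against their titles, and were grouped by title.

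Most Zfp genes of such clusters encode KRAB zinc finger proteins. These bind DNA through a row of zinc fingers, usually encoded by the final exon, and many recruit Trim28 and Setdb1, which deposit the silencing mark H3K9me3 on endogenous retroviruses and other targets. The clusters arose by repeated local duplication, and the bodies of the genes themselves are a known site of H3K9me3 while their promoters often stay active and carry H3K4me3. H3K27me3 is the mark of Polycomb repression, which typically covers developmental genes.

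Starts with and without H3K4me3 are shown here by 4 promoters. Each pair lies in 1 cluster, all 4 genes were under H3K9me3, and only the first of each pair carried H3K4me3. The pairs were not matched for H3K9me3 at the start, which it reached in Zfp988 and Zfp640 alone of the 4. Each sequence runs from 250 bases before the start to the first 50 bases of the gene, from RefSeq (GRCm38.p6), 5′ to 3′ along the gene's strand, with CpG dinucleotides, the sites of DNA methylation, in capitals. Zfp933 (chr4:147848369-147848668, minus strand) had H3K4me3 at its start in 4 of 4 libraries, and Zfp988 (chr4:147305354-147305653, plus strand) in none.
Zfp933: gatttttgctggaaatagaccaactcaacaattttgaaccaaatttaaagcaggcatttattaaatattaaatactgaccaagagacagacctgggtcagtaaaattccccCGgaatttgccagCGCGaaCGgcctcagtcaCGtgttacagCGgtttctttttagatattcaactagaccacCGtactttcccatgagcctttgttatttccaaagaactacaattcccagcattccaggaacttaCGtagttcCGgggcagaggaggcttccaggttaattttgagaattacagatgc
Zfp988: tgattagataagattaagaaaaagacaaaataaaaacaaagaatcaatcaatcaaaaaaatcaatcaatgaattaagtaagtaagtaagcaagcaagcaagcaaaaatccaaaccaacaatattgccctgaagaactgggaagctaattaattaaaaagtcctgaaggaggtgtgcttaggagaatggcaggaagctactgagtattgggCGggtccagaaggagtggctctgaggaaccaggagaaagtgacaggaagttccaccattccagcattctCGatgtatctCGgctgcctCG
On chromosome 13, Zfp273 (chr13:67813566-67813865, plus strand) was marked in 4 of 4 libraries and Zfp640 (chr13:66680754-66681053, minus strand) in none.
Zfp273: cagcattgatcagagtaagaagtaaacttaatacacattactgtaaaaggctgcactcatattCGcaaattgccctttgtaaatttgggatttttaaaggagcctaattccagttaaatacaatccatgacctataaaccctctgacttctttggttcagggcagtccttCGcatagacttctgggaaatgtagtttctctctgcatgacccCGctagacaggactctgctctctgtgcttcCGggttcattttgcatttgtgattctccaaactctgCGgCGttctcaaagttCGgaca
Zfp640: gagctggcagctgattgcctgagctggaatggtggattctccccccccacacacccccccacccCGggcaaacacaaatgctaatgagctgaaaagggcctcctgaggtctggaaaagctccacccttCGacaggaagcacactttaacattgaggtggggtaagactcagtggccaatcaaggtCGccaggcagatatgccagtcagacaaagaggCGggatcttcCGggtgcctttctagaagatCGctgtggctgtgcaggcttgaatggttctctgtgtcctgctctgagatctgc
These windows held 9 CpG in Zfp933, 4 in Zfp988, 7 in Zfp273 and 6 in Zfp640. Counted at the most 5′ start of each gene, the promoters of all 187 members in the RefSeq table held at least 1 CpG. So did 95.04% of those of the 16456 protein-coding genes in it.

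The data were lists of enriched regions called by the authors in each library. The H3K9me3 broad peaks on chromosomes 1 to 19 summed to 56.4 Mb for the WT library and 48.5 Mb for the KO library. For H3K4me3 the replicate 1 lists were the longer ones, with 70687 peaks for WT and 71868 for KO, where replicate 2 had 24917 (WT) and 26206 (KO). The H3K27me3 islands used covered 378 to 500 Mb per library. Total reads per library are unknown from these lists. Of the hepatocyte marker genes with an annotated start (Alb, Apob, Hnf4a and others), 6 of 6 had H3K4me3 there in all 4 libraries and 0 had H3K27me3 in any. H3K4me3 was also in all 4 libraries at 2 of 2 endothelial, 2 of 2 stellate, 1 of 1 bile duct and 1 of 3 lymphocyte marker starts. The 1 macrophage start, of Clec4f, had it in replicate 2 alone. H3K4me3 thus did not set hepatocyte markers apart from most of these. Each of these other lists had H3K27me3 at some start in 1 or more libraries.

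H3K9me3 lay over most of the clustered Zfp genes in both genotypes. A gene was called covered when 10% or more of its body, from gene start to gene end, lay in broad peaks. In WT 125 of 215 members were covered (58.1%, exact 95% interval 51.2 to 64.8), against 3.16% of all protein-coding genes. In KO 122 were covered (56.7%, 49.8 to 63.5), against 2.88% of all genes. These intervals cover counting error only, and neighbouring genes can share a peak, so the genes are not independent. With 1 library per genotype there is no replicate check, and no test was made between genotypes.

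Members made up 19.1% of all covered genes in WT and 20.5% in KO. The median member had 18.4% of its body in broad peaks in WT and 17.7% in KO, and the median of all genes was 0 in both. Of the 145 Zfp genes outside clusters, 30 were covered in WT and 32 in KO. Of the 204 other protein-coding genes inside the cluster spans, 42 were covered in WT and 41 in KO. The members with exactly 2 Zfp neighbours, just inside the rule, were covered in 22 of 40 cases in either genotype, and the Zfp genes with 1 neighbour, just outside it, in 11 of 32.

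The most covered members in WT were Zfp977 and Zfp981, each with 100% of the body in broad peaks, followed by Zfp992 (96.4%), Zfp640 (94.98%) and Zfp873 (91.3%). In KO the same genes had 100%, 98.6%, 95.8%, 100% and 88.7%. The 5 genes thus stayed above 88% in both libraries. A single WT broad peak of 94634 bp lay over Zfp981 and reached Zfp992 and Zfp993. By the authors' fold over control, the strongest WT broad peaks at members lay on Zfp993 (5.403), Zfp180 (4.92), Zfp810 (4.73), Zfp40 (4.70) and Zfp606 (4.66). Over all 147 members with a WT broad peak the strongest fold ran from 3.03 to 5.403 with a median of 4.15. The longest broad peak of such a member had a median length of 6312 bp in WT, and 5951 bp over 149 members in KO. At 68 members in WT and 66 in KO there was no broad peak at all.

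Clusters differed widely, with cluster medians from 0 to 88.1% of the gene body in WT. In WT the highest cluster medians were those of chr4 a and chr4 b on distal chromosome 4, with chr10 a (81.4%) close behind. In KO chr4 a was again highest, and chr10 a (78.8%) and chr13 a (77.2%) lay just above chr4 b. In cluster chr4 a (chr4:145670697-146991471) all 6 members were covered in both genotypes, with a median of 88.1% of the gene body in WT and 90.1% in KO. In chr4 b (chr4:147124882-147849126), where Zfp988 and Zfp933 lie, all 9 were covered, with medians of 81.6% and 77.1%. Members of this region include repressors of endogenous retroviruses, and Zfp600, one of the studied ones, was covered over 90.5% in WT and 91.2% in KO. The least covered members were Zfp993 in chr4 a (43.1% and 44.1%), whose gene model of 478623 bp runs across other members, and Zfp985 in chr4 b (36.2% and 38.6%). Counted over whole gene models, 15 of the 215 members overlapped another member and share its peaks.

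In some clusters the mark also lay between the genes. Of the ground outside protein-coding gene bodies, a measure added after seeing the data, broad peaks held 68.6% in chr4 b in WT and 62.8% in KO, 67.7% and 58.5% in chr10 a, and 38.6% and 34.8% in chr7 g. In chr6 a they held 5.402% and 4.73%. Counted over the whole span, gene bodies included, broad peaks held 77.6% of the whole span of chr4 b in WT and 74.97% in KO, against 30.7% and 29.5% of the 100 kb on either side. In chr10 a, with Zfp433, Zfp781, Zfp873 and Zfp938, they held 76.0% and 71.1% of the span, against 26.1% and 22.2% of the flanks. In chr7 g, with 15 members over 401 kb, they held 27.3% and 25.7% of the span against 10.9% and 10.04% outside. Thus in each of these 3 clusters the span was more covered than its flanks in both genotypes. In chr4 a the order was the other way, with 48.9% of the span and 70.3% of the flanks in WT. In chr13 b, too, the flanks (36.3% in WT) were more covered than the span (27.1%). The flanks were also the more covered in chr2 c, chr7 c and chr15 a. In every remaining cluster the span was more covered than its flanks in both genotypes.

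The largest clusters held both covered and bare genes. The pairs named here are a most and a least covered member of a cluster and need not be adjacent. Cluster chr17 a (chr17:21008941-23599755) had 23 members, of which 15 were covered in WT and 13 in KO, from Zfp942 with 81.1% and 80.3% down to Zfp13 with 0 and 0.83%. Cluster chr13 b (chr13:66670274-67827000) had 20 members, with 16 and 15 covered, from Zfp640 down to Zfp429, which was bare in both libraries. In chr7 g 10 of 15 were covered in both, with Zfp146 at 64.99% and 70.0% and Zfp14 at 0. In chr7 e 6 of 13 were covered in both, with Zfp180 at 51.6% and 46.9% and Zfp108 at 0. In chr17 b 4 of 11 were covered in both, with Zfp763 at 77.9% and 78.5% and Zfp414 at 0. Further clusters showed the same mix, for example with Zfp110 (85.2% and 85.6%) and Zfp128 (0) in chr7 d. Cluster chr8 a held Zfp930 (76.6% and 77.3%) and Zfp868 (0).

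Other clusters were almost free of the mark. None of the 8 members of chr6 a was covered in either genotype, and the highest there was Zfp398 with 3.78% in WT and 0.50% in KO. In chr7 i, with 10 members, Zfp689 alone was covered and only in KO (4.81% in WT and 17.7% in KO). The 4 members of chr7 c and the 3 of chr15 a had 0 in both. In all, 9 of 33 clusters had each of their members covered in both genotypes and 4 had none covered in either, 1 of these being a cluster of the single member Zfp965.

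**Figure D1:**
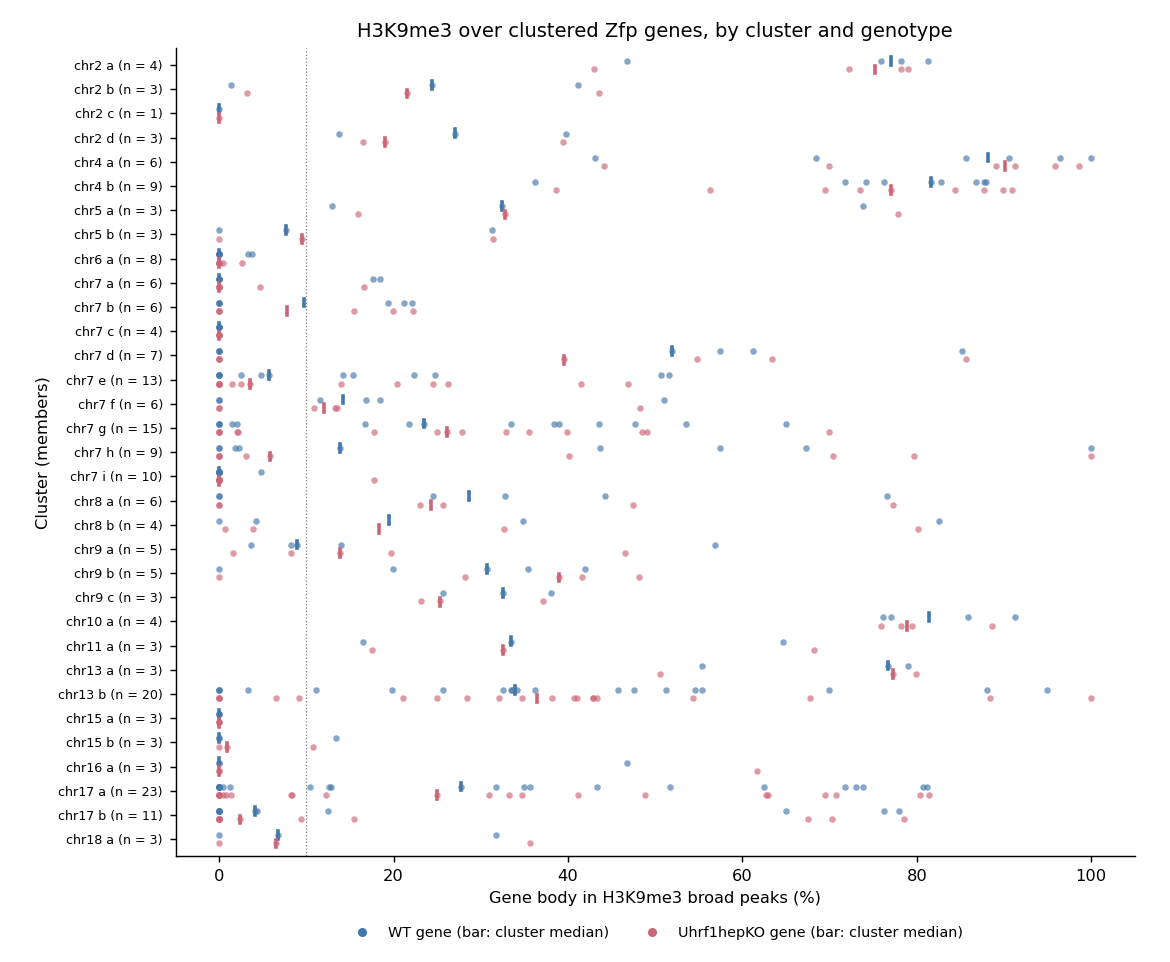
Percent of each gene body in H3K9me3 broad peaks (horizontal axis) for the 215 members in 33 clusters (rows), in WT (blue) and Uhrf1hepKO (red); each point is 1 gene, the short bars are cluster medians and the dotted line marks 10%, above which a gene was called covered. The clusters chr4 a and chr4 b lie far to the right (medians 88.1% and 81.6% in WT), chr6 a and chr7 i lie near 0, and the colours lie close to each other within clusters.

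Within the genes, H3K9me3 lay towards the 3′ end and left most starts free. Strand and start were known for 187 members, which had an entry in the RefSeq promoter table, and the other 28 enter only the values over whole gene bodies. Each gene was split along its strand into 3 equal parts. Among the covered members with a known strand, the part at the 3′ end held more of the mark than the part at the start in 107 of 113 genes in WT (94.7%, exact 95% interval 88.8 to 98.03) and 102 of 110 in KO (92.7%, 86.2 to 96.8). Among all covered genes of any family the same held in 67.5% in WT and 68.5% in KO. It also held in 21 of 22 covered Zfp genes outside clusters in WT and 23 of 24 in KO, and in 27 of 32 and 28 of 31 covered other genes inside the cluster spans. The lean to the 3′ end was thus also seen in Zfp genes outside clusters and in neighbours of the members. The mean share of the 3 parts in broad peaks was 19.1%, 49.1% and 76.8% from start to 3′ end in WT, and 18.7%, 51.3% and 75.5% in KO. In WT the mean share of the start part was 23.2% over all covered genes. It was 9.13% in covered Zfp genes outside clusters and 26.1% in covered other genes inside the spans. A low share at the start was thus not particular to members. In 61 of 113 covered members in WT, and 56 of 110 in KO, the part at the start held none of the mark. This share was not computed for all covered genes.

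Over 10 equal bins of the gene the mean covered share rose in WT from 9.64% in bin 1, at the start, to 82.8% in bin 9, and was 76.9% in bin 10. It fell outward from the gene, to 62.9% in the first kb after the 3′ end and 46.1% in the fifth, while it was 10.2% in the kb before the start. Over all covered genes the kb before the start held 13.8% in WT. Single genes show the pattern plainly. Zfp810 had 0%, 6.88% and 99.5% of its parts covered in WT and 0%, 16.9% and 100% in KO. Zfp606 had 0%, 55.8% and 100% in WT and 0%, 64.5% and 100% in KO. Zfp708, a repressor of a retroviral repeat family in mouse, had 0%, 0% and 59.3% in WT and 0%, 0% and 63.4% in KO. The exceptions in WT, with as much or more at the start, were Zfp977, covered throughout, and Zfp993, Zfp979, Zfp660, Zfp458 and Zfp758. The last 5 of these had 67.1%, 91.8%, 39.6%, 32.5% and 77.4% of the start part covered.

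**Figure D2:**
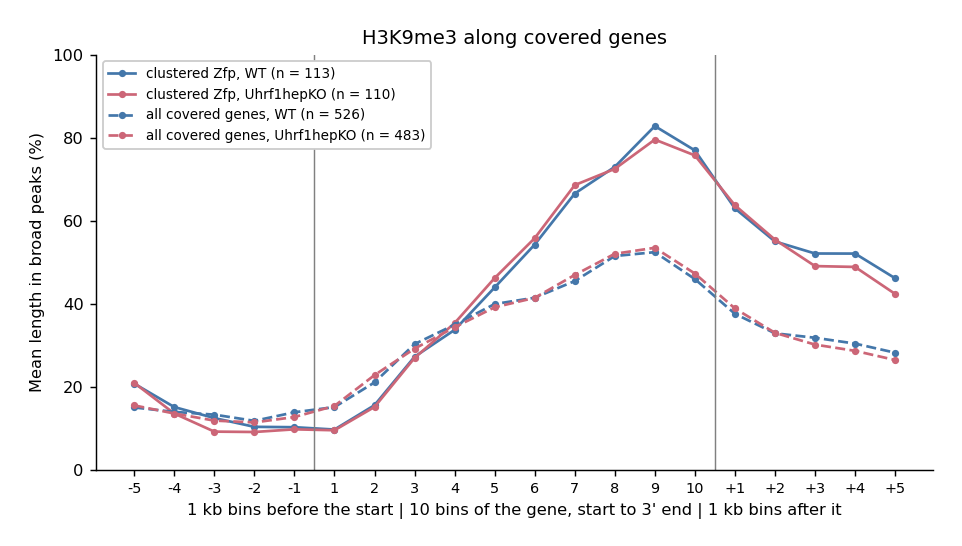
Mean percent of length in H3K9me3 broad peaks (vertical axis) in 1 kb bins before the gene start, 10 equal bins of the gene and 1 kb bins after its 3′ end (horizontal axis), for covered clustered Zfp genes (solid lines) and all covered protein-coding genes, members included (dashed lines), in WT (blue) and Uhrf1hepKO (red). The solid lines climb from 9.64% to 82.8% in WT across the gene and lie almost on each other, and the dashed lines climb less.

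Measured by windows of 1 kb to either side, broad peaks touched the start of 16 of 187 members in WT and 17 in KO, against 1.67% and 1.71% of all genes. They touched the 3′ end of 102 in WT and 99 in KO, against 3.55% and 3.45%. The 3′ end was thus touched in 54.5% and 52.9% of the members and the start in 8.56% and 9.09%. Zinc finger counts and protein sequences were not used here, so the place of the mark was not set against the exons that encode the fingers.

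Loss of Uhrf1 went with little change of H3K9me3 over these genes. Of the 125 members covered in WT, 120 were also covered in KO (96.0%, interval 90.9 to 98.7), and of the 528 other genes covered in WT, 415 were (78.6%, 74.9 to 82.0). Among these others, 30 of 30 Zfp genes outside clusters and 39 of 42 other genes inside the cluster spans were covered in KO as well, so this was also seen in Zfp genes outside clusters and in neighbours of the members. Of all genes, 2.59% were covered in both libraries. Covered members had a median of 43.6% of the body in WT broad peaks, against 26.6% over all covered genes, members included. Covered members thus started further above the 10% line, and the kept shares were not matched for this. The summed length in broad peaks over members was 1922 kb in WT and 1901 kb in KO, a KO to WT ratio of 0.989, where that over the whole of chromosomes 1 to 19 was 0.859. The ratio was 0.978 for Zfp genes outside clusters and 0.980 for other genes inside the spans. Of the WT length in members 89.6% was also in KO peaks, and of the WT length on these chromosomes 62.6%. In bulk tissue, fewer cells with the mark and less of it per cell cannot be told apart.

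The shares of members that gained and lost length were close to those of all genes. Of 153 members with a broad peak in either library, 73 had more in KO (46.6% of all such genes) and 79 had less (52.9% of all such genes). When the WT list was shortened by q-value to the covered length of the KO list, 91 of 149 members that differed had more in KO. Of all genes with a broad peak in either list, equal ones included, 61.1% had more. By cluster 20 had less covered length within members in KO and 10 had more. The largest cluster sums were 484 and 478 kb in chr4 b, 350 and 356 kb in chr4 a, 198 and 190 kb in chr17 a, and 137 and 130 kb in chr13 b, in WT and KO. The summed length in chr9 b rose from 27.6 to 35.5 kb, mostly at Zfp809.

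A difference of over 10 percentage points of the gene body was seen at 13 of 215 members, with 6 higher and 7 lower in KO. The share of all genes with such a difference was not computed, so this count is not read as particular to members. The largest rise was at Zfp809, the protein of which starts the silencing of retroviruses in mouse embryos. Zfp809 had 19.9% of its body covered in WT and 41.6% in KO, and the share of its middle part went from 0% to 34.6%. Its 3′ end overlaps the gene model of Zfp599, which had 41.98% and 48.1%. The next rises were at Zfp263 (46.7% to 61.6%), Zfp87 (11.1% to 25%), Zfp689 (4.81% to 17.7%) and Zfp975 (57.5% to 70.4%). All 5 genes had some of the mark in WT, and by the definition used no member gained it from 0 (0.0678% of all genes did).

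The largest fall was at Zfp551, from 61.2% in WT to 39.5% in KO. It was followed by Zfp534 on chromosome 4 (74.2% to 56.3%), Zfp579 (17.7% to 0%), Zfp455 (25.7% to 9.16%) and Zfp65 (55.4% to 40.6%). At Zfp534 the start part fell from 54.8% to 8.29% while the part at the 3′ end was 100% in both libraries. Zfp579 was the 1 member that was covered in WT and held no KO peak (0.145% of all genes did), and its WT mark was a single broad peak of 575 bp with a fold of 3.20. Besides it, Zfp658, Zfp455, Zfp677 and Zfp52 were covered in WT alone, and Zfp689 and Zfp26 in KO alone. At Zfp551, Zfp534, Zfp455 and Zfp65 part of the gene stayed covered in KO.

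**Figure D3:**
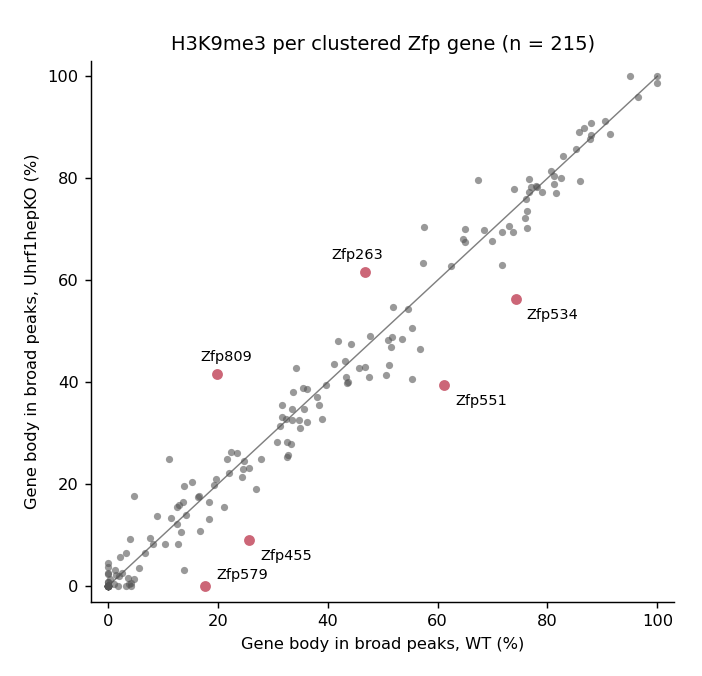
Percent of the gene body in H3K9me3 broad peaks in WT (horizontal axis) and Uhrf1hepKO (vertical axis) for each of the 215 members (1 point each), with the line of equal values and 6 named genes in red. Most genes lie near the line, with Zfp809 (19.9% and 41.6%) above it and Zfp551 (61.2% and 39.5%) below it.

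H3K4me3, the promoter mark, was found at the start of nearly all members in both genotypes. A start counted as marked if a narrow peak reached into the 1 kb to either side of it by 1 bp or more. Of the 187 members with a known start, 172 and 169 were marked in WT replicates 1 and 2, and 170 and 169 in KO replicates 1 and 2. The share among all genes was 65.2%, 59.3%, 64.5% and 62% in these libraries. All 4 libraries marked 169 members (90.4%, interval 85.2 to 94.2), against 58.7% of all genes. Of the Zfp genes outside clusters 101 of 114 were marked in all 4 (88.6%, 81.3 to 93.8), a share whose interval overlaps that of the members. Counted at either end of the gene, which needs no strand, 211, 192, 206 and 192 of all 215 members were marked in WT replicates 1 and 2 and KO replicates 1 and 2, against 66.9%, 59.9%, 66.2% and 62.7% of all genes. No member was lost (both WT and neither KO library; 0.0122% of all genes) or gained (the reverse; 0.122%), and labels of 2 against 2 libraries cannot give a small p.

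The authors' fold of the strongest peak at a marked start had medians of 21.9 and 60.2 in WT replicates 1 and 2 and 20.4 and 83.8 in KO replicates 1 and 2. Folds are the authors' values within each list, and they were not compared between lists. Zfp994 had the highest fold of all members in 3 of the 4 libraries (31.8 in WT replicate 1, 33.4 and 141 in KO replicates 1 and 2), and Zfp953 in WT replicate 2 (119). Zfp660 was among the weakest in each, with 3.50 and 4.57 in WT and 4.74 and 6.17 in KO. Starts that lie close together can share a peak. The closest were those of Zfp944 and Zfp758 (63 bp apart), Zfp942 and Zfp943 (95 bp) and Zfp27 and Zfp383 (1985 bp).

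At 14 members (7.49%, against 33.3% of all genes) no library had H3K4me3 at the start, and most of these had H3K9me3 there. Of the 14, 13 were covered by H3K9me3 in WT and 11 had a broad peak within 1 kb of the start in each genotype. Of the 169 members marked in all 4 libraries, 4 had such a peak in WT (Zfp982, Zfp984, Zfp872 and Zfp445, the last of which helps to keep the methylation of imprinted genes) and 5 in KO (these and Zfp660). The shares over all genes with and without H3K4me3 were not computed, so these counts are not read as particular to members. Neighbouring genes can share a peak, so the 14 are not independent. Clusters chr4 a and chr4 b on chromosome 4 held 8 of them, namely Zfp980, Zfp987, Zfp600, Zfp981, Zfp988, Zfp985, Zfp979 and Zfp534. The others were Zfp345, Zfp663, Zfp626, Zfp977, Zfp936 and Zfp640, of which Zfp345 and Zfp663 were covered away from the start and Zfp626 was bare. Counted at the most 5′ annotated start of each gene, their promoters held a median of 4.5 CpG, and those of the 169 marked members held 12. Of the sequences above, the chromosome 4 pair differed in this way (9 in Zfp933 and 4 in Zfp988), while Zfp273 and Zfp640 on chromosome 13 held nearly the same number (7 and 6). For all protein-coding genes these medians were 3 without and 21 with H3K4me3 in all 4 libraries. Genes with H3K4me3 at any annotated start in all 4 libraries thus had the higher median CpG count at their most 5′ promoter. This held among members and among all genes.

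At most members with both marks, the most 5′ annotated start lay some distance from the nearest H3K9me3 broad peak. Distances were taken from that start, while H3K4me3 was called at any annotated start of the gene. Where a gene has several starts, the measured start need not be the marked one. Among 98 members covered in WT and marked by H3K4me3 in all 4 libraries, the start lay a median of 4882.5 bp from the nearest broad peak, with quartiles of 3062.5 and 7359.75 bp and a highest value of 20401 bp, at Zfp708. In KO the median over 95 such members was 4686 bp. Zfp873, the most covered of these genes, had H3K4me3 folds of 24.2 and 54.4 in WT and 21.0 and 75.1 in KO. Its most 5′ start lay 1974 bp (WT) and 1934 bp (KO) from H3K9me3. Zfp273, whose promoter is shown above, had 88.0% and 88.4% of its body covered, and a distance of 1582 and 1533 bp. Zfp110, which encodes a partner of the neurotrophin receptor, had 85.2% and 85.6% and a distance of 2343 and 2272 bp. Zfp933, in the chr4 b cluster, had 76.2% and 73.5% and a distance of 4212 and 3908 bp. At Zfp984 and Zfp982, also in chr4 b, the distance was short (0 bp at Zfp984 in both genotypes, and 460 and 394 bp at Zfp982), and the H3K4me3 folds there were 8.43 to 9.47 in WT replicate 1.

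**Figure D4:**
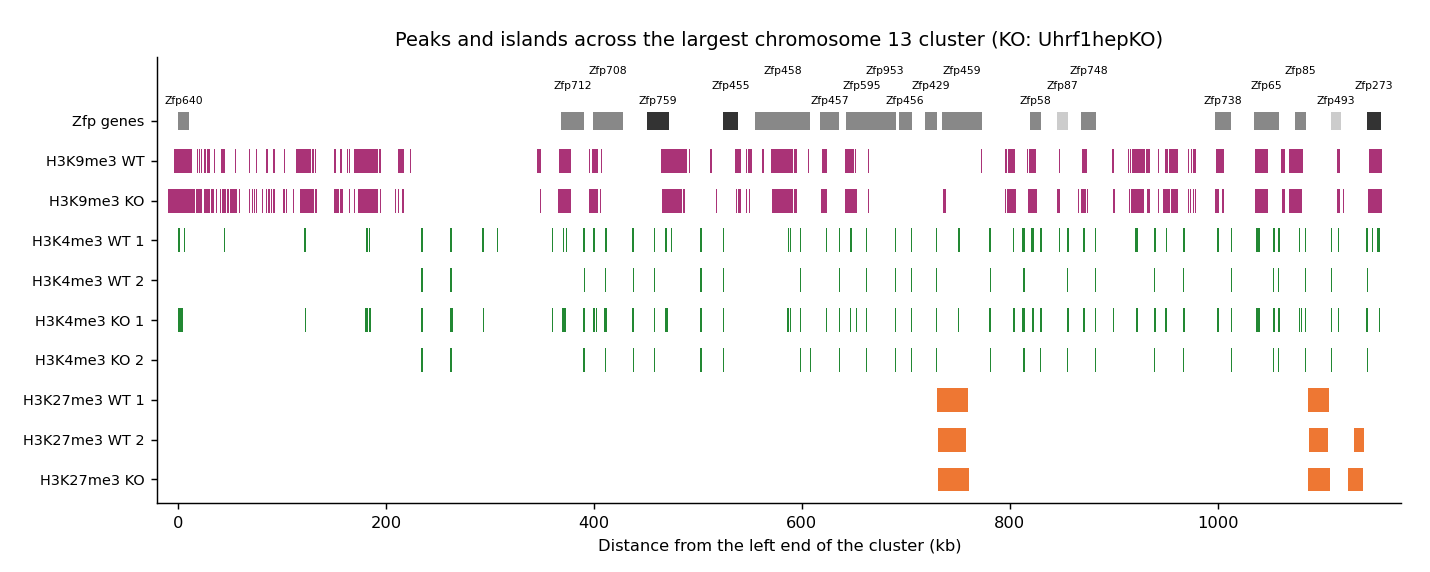
Map of cluster chr13 b, with distance from its left end in kb (horizontal axis), the 20 members (dark grey: plus strand, mid grey: minus strand, light grey: strand not known here), H3K9me3 broad peaks (purple), H3K4me3 narrow peaks (green) and H3K27me3 islands (orange) per library. H3K9me3 lies over 16 members in WT and 15 in KO, and replicate 1 of H3K4me3 has peaks that replicate 2 lacks. Zfp640 at the left end carries H3K9me3 over 94.98% of its body in WT and 100% in KO, with no H3K4me3 at its start.

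At the 3′ end the H3K4me3 replicates differed. In replicate 1, 58 of 187 members in WT and 56 in KO had a peak within 1 kb of the 3′ end, against 11.7% and 11.6% of all genes. In replicate 2, 9 members had one in either genotype, against 5.99% and 6.83%. Among members covered by H3K9me3 replicate 1 had such a peak at 47 of 113 in WT and 47 of 110 in KO, and replicate 2 at 2 in each genotype. The difference lay between the replicates and was alike in both genotypes. The replicate 1 peaks at the 3′ ends of covered members were weak, with median folds of 4.41 in WT and 4.74 in KO, against 21.9 and 20.4 at member starts in the same libraries.

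By length, 50.7% of the H3K4me3 within members in WT replicate 1 and 55.8% in KO replicate 1 lay inside H3K9me3 broad peaks of the same genotype, and 2.70% and 1.96% in replicate 2. Over all protein-coding genes these shares were 2.16%, 2.53%, 0.216% and 0.208%. In Zfp genes outside clusters they were 18.1% and 21.9% in replicate 1 and 0 and 0.075% in replicate 2, so there, too, the overlap lay in replicate 1. When peaks were limited to a q-value of 1e-05 or below, a setting chosen after seeing the data, 44.7% and 50.7% remained in replicate 1 and 2.11% and 1.96% in replicate 2. The overlap of both marks in members therefore rests on the replicate 1 libraries, and its cause was not tested. Counts at the start differed by no more than 3 members between replicates of a genotype.

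**Figure D5:**
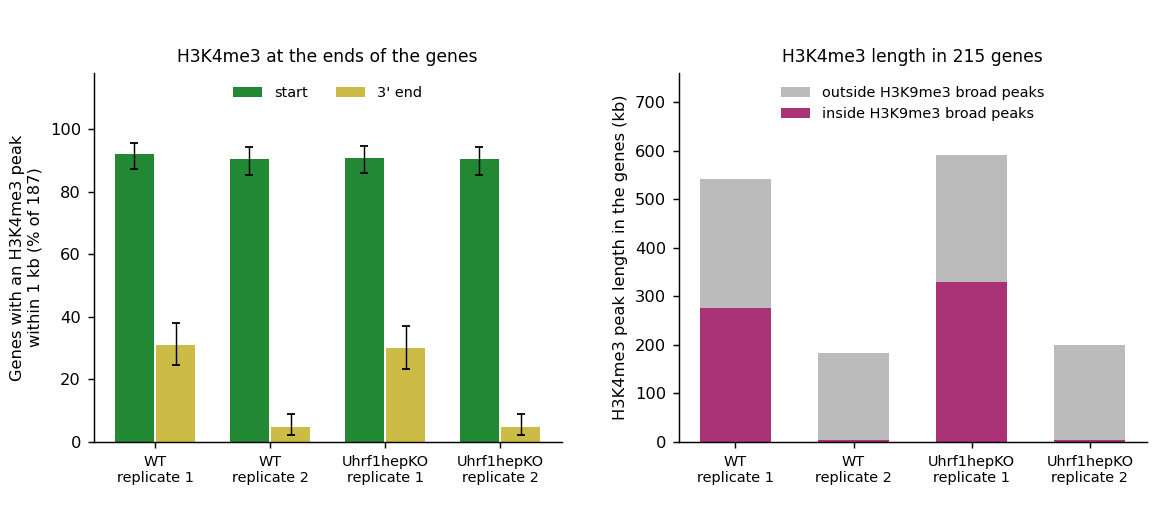
Left, percent of the 187 members with a known start that had an H3K4me3 peak within 1 kb of the start (green) or of the 3′ end (yellow) in each library, with exact 95% intervals; right, kb of H3K4me3 peak length inside members per library, inside (purple) and outside (grey) H3K9me3 broad peaks of the same genotype. Starts are marked alike in the 4 libraries (169 to 172 members), while peaks at the 3′ end and inside H3K9me3 lie mainly in the replicate 1 libraries.

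H3K27me3, the Polycomb mark, was rare on these genes. A start was marked when its 1 kb windows touched an island at a false discovery rate of 0.01 or below. In unchallenged liver 14 and 12 of 187 members were marked in WT replicates 1 and 2 and 11 in KO, against 22.3%, 27.4% and 22.8% of all genes. Of the 114 Zfp genes outside clusters 15, 18 and 15 were marked. Islands held 1.95% and 2.15% of the summed gene length of members in WT and 1.93% in KO, against 15.9%, 19.7% and 19.96% of that of all genes. They held 0.698%, 0.685% and 0.313% of the H3K9me3 length in members, against 10.02%, 13.6% and 11.3% of that in all genes. Members thus carried little H3K27me3 in every baseline library, also within H3K9me3.

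The 7 members marked in all 3 of these libraries were Zfp819, Zfp882, Zfp660, Zfp105, Zfp433, Zfp459 and Zfp677. Zfp660 and Zfp105 are neighbours and share 1 island, with folds of 1.89 and 1.61 in WT and 1.84 in KO. Zfp433 had 1.97, 1.58 and 1.67, Zfp459 had 1.62, 1.61 and 1.60, and Zfp819 had 1.58, 1.56 and 1.63. The folds of these genes were low, and over all marked members they ran from 1.19 to 3.28. Of the 19 members marked in any of the 3 libraries, 9 were covered by H3K9me3 in WT and 16 had H3K4me3 in all 4 libraries. Of all 187 members with a known start, 113 were covered and 169 had H3K4me3 in all 4. The counts among the 19 are thus not read as a link between the marks. At Zfp433 the gene was covered by H3K9me3 (77.0% in WT). Its island touched the 1 kb window around the start from outside the gene, with 0% of the body in it.

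Zfp580 was marked in both WT libraries (folds of 2.55 and 3.28, the highest of any member) and not in KO, as were 1.4% of all genes. Zfp109 was marked in KO (1.87) and in neither WT library, as were 0.942% of all genes. Each of these calls rests on 1 KO library, and leaving out 1 WT library moved the losses to 4 or 5 and the gains to 2 or 3. The shares of all genes with a library left out were not computed. During regeneration of WT liver 10, 13 and 16 members were marked at 30, 40 and 96 h, against 17.4%, 16.6% and 24.6% of all genes and 12 members at 0 h. Zfp105, Zfp433 and Zfp459 were marked at all 4 times, and Zfp580 at 0 h (3.28) and 96 h (2.21) but not between. With 1 library per time there is no replicate check.

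Of 20 Zfp genes with published roles listed for this work, 15 were members. Zfp568, which represses a placental transcript of Igf2 in mouse, Zfp819, Zfp108 and Zfp429 held no broad peak in either genotype. Zfp961 and Zfp459 held little (4.23% and 0.64%, and 3.36% and 6.58%, in WT and KO). The other 9, Zfp600, Zfp992, Zfp979, Zfp534, Zfp110, Zfp30, Zfp809, Zfp445 and Zfp708, were covered in both. Zfp30, a regulator of neutrophil recruitment in mouse, had 38.5% in WT and 35.6% in KO, and Zfp445 had 38.1% and 37.2%. Of 24 listed genes of the silencing pathway on which KRAB proteins act, such as Trim28, Setdb1 and Dnmt1, 22 were found, and 22 of 22 had H3K4me3 at the start in all 4 libraries, with 0 covered by H3K9me3 and 0 marked by H3K27me3.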

How the data were processed

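Lists of enriched regions from 12 ChIP libraries were used, and 3 input samples had none. Per the submitters' processing notes, the authors used BWA, Trimmomatic, Picard, FastQC 0.11.5, SICER and MACS2, with the builds GRCm38.p4 and mm10. In the deposited MACS2 lists the authors give per peak a score, a fold ratio over control, and p-values and q-values as −log10. In the deposited SICER lists (window 1000 bp, gap 4000 bp, per the file names) the authors give raw read counts, a p-value, a fold and a false discovery rate per island. Regions were called per library, so weak regions depend on depth, which the lists do not give.

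Genes, strands and starts came from RefSeq (GRCm38.p6). Regions were merged and overlapped with genes in Python 3.11.15 with numpy 2.4.6, pandas 2.3.3 and scipy 1.17.1, and drawn with matplotlib 3.10.9. On lists simulated over 20661 genes, 500 of 500 windows matched a base by base count and 200 of 200 covered genes were found. Intervals are exact (Clopper-Pearson, 95%). The members, gene lists and measures were chosen with earlier results of these data known. Named members were the extremes of each measure (the 5 with the highest coverage or fold, the 5 that rose or fell most, those lost or gained, up to 10 with both H3K4me3 and H3K9me3 or with islands, and the most and least covered of each large cluster) and the listed studied genes; a few others were named after their values were seen. Protein features were planned and not made.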

Additional observations from a re-analysis of the deposited data

How the results depend on the processing

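Of 114 recomputed values, 74 stayed within the main interval or within 1.5 times the main count, 36 moved and 4 changed direction. The direction of the length difference between genotypes depended on the list. Among members that differed, 48.0% had more H3K9me3 in KO with all broad peaks. The percent was 61.1% with lists of equal covered length and 57.1% with a q-value of 1e-05 or below. Of all genes with a broad peak in either list, equal ones included, 61.1% and 52.4% had more at these 2 settings. The KO minus WT sum went from -20.7 kb to 38.1 and 30.5 kb, with -33.1 kb for narrow peaks. At that q-value 8.37% of members were covered in WT (0.213% of all genes) and 10.2% in KO (0.252%), with 3 lost (0.0484% of all genes) and 7 gained (0.092%), since 730 WT and 931 KO peaks were left. Members covered over at least 25% of the body were 44.2% and 44.7% (1.65% and 1.56% of all genes), and over at least 50% 26.05% and 22.3% (0.871% and 0.77%). The count of lost members was 0 with narrow peaks, with equal length and at 25% and 50%. Of all genes 0.0436%, 0.0678%, 0.0629% and 0.0242% were lost at these settings. Gained members were 2 with equal length (0.126% of all genes). Over all members with a peak and unequal ends, 92.9% in WT and 93.5% in KO had more at the 3′ end, and 81.5% and 84.1% with the start taken from H3K4me3.

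For H3K4me3, 1 member was gained at a q-value of 1e-05 or below. Leaving out 1 replicate gave 0 to 3 lost members, the 3 without WT replicate 2, and 0 to 1 gained, the 1 without KO replicate 2. For H3K27me3, with islands over 50% of the body the counts were 4 and 5 in WT, 6 in KO and 7 and 5 at 40 and 96 h, with 0 lost. With a fold of 2 or more they were 1 and 1 in WT, 0 in KO, 0 at 30 and 40 h and 2 at 96 h, with 0 gained. Without 1 WT replicate 4 to 5 members were lost and 2 to 3 gained. For these H3K4me3 and H3K27me3 settings the shares of all genes were not computed. The cause of these shifts was not tested beyond the number of regions left. No paired analysis was possible because no result comes from a test; side by side, WT and KO had 172 and 170 marked starts in replicate 1 and 169 and 169 in replicate 2, the round 2 pair. The lists give no depth, and H3K9me3 has 1 library per genotype.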
